A study of Homo sapiens with 9 samples.

Results

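The glycolysis and hypoxia response genes are a set of 39 mouse gene symbols chosen by name. They comprise the glucose carriers, the enzymes that take glucose to lactate, the hypoxia-inducible factor (HIF) subunits with their oxygen sensors, and genes induced by low oxygen. Of the 39 genes, 35 were measured in 9 orthotopic thyroid tumors, and all 35 were among the 10263 genes of 17369 that reached the level for testing. Pgk1, Pkm, Pdk3 and Ero1l were not analysed here. The genes were listed by name and role, with earlier results of these data known.

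Glycolysis splits glucose into pyruvate. Cancer cells often run it fast and turn the pyruvate into lactate even when oxygen is present. In low oxygen the HIF alpha subunits escape the prolyl hydroxylases that mark them for destruction, pair with ARNT and raise the transcription of many glycolytic enzymes, glucose carriers and survival genes. Anaplastic thyroid cancer is a fast-growing undifferentiated tumor in which glucose uptake is typically high.

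TBP3743 is a murine anaplastic thyroid cancer line derived from B6129SF1 mice that carried a thyroid-specific mutant Braf and a thyroid-specific deletion of Trp53, so all 9 tumors share this origin. The original/B6129SF1 group held original TBP3743 cells grown in B6129SF1 hosts, the adapted/B6129SF1 group held adapted cells in the same hybrid hosts, and the adapted/C57BL/6 group held adapted cells in C57BL/6 hosts, with 3 tumors in each. The adapted cells came from round 3 of serial subcutaneous passage through C57BL/6 mice, in which the largest tumors of each round seeded the next. Female mice received 100000 cells in the thyroid at 6 weeks of age, and the whole tumors were taken 14 days later. All 6 adapted tumors thus trace to the same serial passage, and original cells in C57BL/6 hosts were not analysed here. The labels list the organism as human, whereas the table carries mouse gene symbols and the stated genome build is mm10.

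Values are FPKM, in which fragments are divided by transcript length and scaled between tumors, so levels of different genes can be compared. The absolute depth is unknown, and the depth read from the smallest steps between low values ranged from 0.966 to 1.35 times that of original/B6129SF1 replicate 1. Skeletal muscle markers made up 7.59% of the summed FPKM of adapted/B6129SF1 replicate 3 and 1.45% of that of adapted/C57BL/6 replicate 1, and no more than 0.168% elsewhere. The summed level of 8 leukocyte markers was 600 to 685 FPKM in the original/B6129SF1 tumors, 920 to 1194 in the adapted/B6129SF1 tumors and 652 to 1239 in the adapted/C57BL/6 tumors. The summed level of 6 epithelial keratin and adhesion genes was 577 to 970, 265 to 547 and 370 to 423 FPKM in the same order. In such whole-tumor RNA, fewer cells of a type and less RNA per cell cannot be told apart.

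The enzymes of the central pathway were among the most abundant transcripts of the set. Aldoa, the aldolase that splits the 6-carbon sugar, had the highest median level over the tumors at 747 FPKM, followed by the lactate dehydrogenase gene Ldha at 578 and the enolase gene Eno1 at 524. The lowest medians belonged to the neuronal-type glucose carrier gene Slc2a3 at 1.92 FPKM, to Aldoc at 3.74 and to Eno2 at 4.2.

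Against the original/B6129SF1 group, 4 genes rose and 1 fell in the adapted/B6129SF1 group, which is 14.3% of the 35 genes, by an adjusted p under 0.05 from limma on log2(FPKM + 1). Of all 10263 genes tested, 8.28% passed in that comparison, 4.37% higher and 3.92% lower. In the adapted/C57BL/6 group 1 of the 35 genes rose and 0 fell (2.86%), against 6.75% of all genes, of which 3.99% were higher and 2.77% lower. When the mean of both adapted groups was set against the original/B6129SF1 group, 4 genes rose and 1 fell (14.3%), against 11.9% of all genes, 6.06% higher and 5.84% lower. Between the adapted/C57BL/6 and adapted/B6129SF1 groups 0 of the 35 genes passed by limma, where 0.0292% of all genes did. In that comparison 3 of the 35 (8.57%) had an unadjusted p under 0.05, against 6.27% of all genes. The shares were close to or below the background except in the adapted/B6129SF1 group, and these comparisons share tumors. With the additional limit of an absolute log2 fold change above 1, 2 genes were differentially expressed in the adapted/B6129SF1 group (Pfkfb4 and Eno2), against 3.22% of all genes, and 1 in the adapted/C57BL/6 group (Pfkp), against 3.09%. Under that limit 0 of the 35 genes were called in the combined comparison, against 3.39% of all genes, and 0 between the hosts.

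The median log2 fold change of the 35 genes was 0.13 in the adapted/B6129SF1 group, 0.23 in the adapted/C57BL/6 group and 0.17 in both together. The medians over all genes tested were -0.03 in each. Most of the set was slightly above 0, with a positive difference for 22 of 35 genes in the adapted/B6129SF1 group and for 25 of 35 in the adapted/C57BL/6 group, while 45.7% and 46.1% of all genes were positive. The 3 original/B6129SF1 tumors and the 6 adapted tumors did not overlap for 6 of the 35 genes (17.1%), against 19.2% of all genes. Slc2a3, Pfkp, Pfkfb4, Eno2 and Egln3 were the 5 genes that were higher in the adapted tumors, against 8.54% of all genes, and Pgam1 was the 1 gene that was lower, against 10.6%. Summed leukocyte markers were higher in 5 of the 6 adapted tumors than in any original one. Of the 6 keratin and adhesion genes Krt8 fell in both adapted groups together (log2 fold change -1.22, adjusted p = 0.0104 from limma), and the other 5 did not pass. Adapted/C57BL/6 replicate 2, whose leukocyte marker sum of 652 FPKM lay within the original/B6129SF1 range, had the highest Pfkp and Egln3 levels of all tumors and the lowest Pfkfb4 level among the adapted ones. This is 1 tumor, and the part of leukocyte content in the levels of these genes was not tested.

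**Figure D1:**
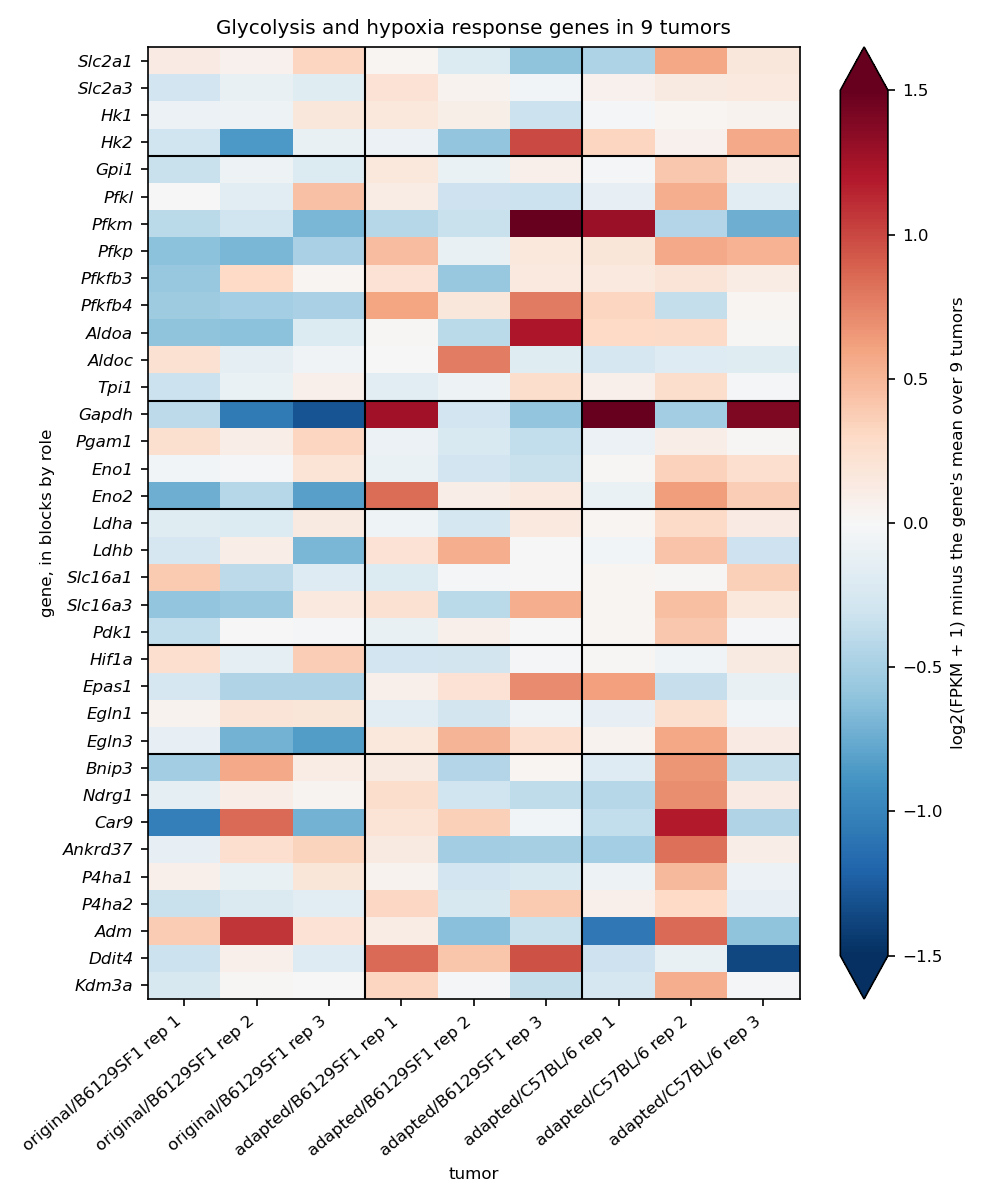
Level of each of the 35 measured genes (rows, in blocks by role) in each of the 9 tumors (columns), as log2(FPKM + 1) minus the gene's mean over the 9 tumors; the color scale ends at 1.5 in either direction. Pfkp, Pfkfb4, Eno2 and Egln3 are blue in the 3 original/B6129SF1 tumors, and most genes induced by low oxygen are red in adapted/C57BL/6 replicate 2.

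At the entry of the pathway, 0 of the 4 glucose uptake and phosphorylation genes passed in any comparison. Slc2a1, the carrier gene that supplies most proliferating cells with glucose, was 57.4 ± 5.48 FPKM in the original/B6129SF1 group, 42.9 ± 9.37 in the adapted/B6129SF1 group and 56.6 ± 19.9 in the adapted/C57BL/6 group (SD, n = 3 tumors each). Its log2 difference between both adapted groups and the original/B6129SF1 group was -0.25, with a 95% interval from -0.76 to 0.25. Slc2a3 was much less abundant, with 1.31, 1.6 and 1.49 FPKM in the original/B6129SF1 tumors, 2.26, 1.92 and 1.74 in the adapted/B6129SF1 tumors and 1.95, 2.1 and 2.11 in the adapted/C57BL/6 tumors. The adapted tumors were all above the original ones for Slc2a3, but the log2 difference of 0.29 did not pass (adjusted p = 0.127 from limma). The hexokinase genes, whose enzymes trap glucose as its phosphate, differed in spread. Hk1 varied little, with a combined log2 difference whose 95% interval ran from -0.27 to 0.26, whereas Hk2 ranged from 3.95 FPKM in original/B6129SF1 replicate 2 to 16.8 in adapted/B6129SF1 replicate 3 (log2 difference 0.63, adjusted p = 0.227 from limma).

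In upper glycolysis, 2 of the 9 genes rose in the adapted/B6129SF1 group, where 4.37% of all genes were higher. They were Pfkp and Pfkfb4, whose products act at the step that commits sugar to the pathway. Pfkp, the platelet-type phosphofructokinase subunit, was 10.7, 10.1 and 11.8 FPKM in the original/B6129SF1 tumors, 23.8, 15.6 and 19 in the adapted/B6129SF1 tumors and 19.4, 25.6 and 24.6 in the adapted/C57BL/6 tumors. Every adapted tumor lay above every original tumor. The log2 fold change was 0.77 in the adapted/B6129SF1 group (standard error 0.16, adjusted p = 0.0251) and 1.02 in the adapted/C57BL/6 group (standard error 0.16, adjusted p = 0.00846), and 0.89 for both together (adjusted p = 0.00623, all from limma). Pfkp was the only one of the 35 genes to pass in all 3 comparisons with the original/B6129SF1 group. In the combined comparison its adjusted p ranged from 0.00531 to 0.0311 over the 18 alternatives. The adapted/C57BL/6 call was lost without adapted/C57BL/6 replicate 3 (adjusted p = 0.0507). The adapted/B6129SF1 call was lost without original/B6129SF1 replicate 1, 2 or 3 (adjusted p = 0.0781, 0.0629 and 0.0704) and without adapted/B6129SF1 replicate 1 or 3 (adjusted p = 0.0506 and 0.0578). It was also lost with a replicate block or only the groups compared (limma adjusted p = 0.0621 and 0.0517).

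Pfkfb4 encodes a bifunctional enzyme that makes and removes fructose 2,6-bisphosphate, the chief activator of phosphofructokinase, and it is a known HIF target. It was 4.37, 4.44 and 4.55 FPKM in the original/B6129SF1 tumors, 10.7, 7.71 and 12.3 in the adapted/B6129SF1 tumors and 8.7, 5.05 and 6.94 in the adapted/C57BL/6 tumors. The original tumors lay within a narrow range below all adapted tumors, and adapted/C57BL/6 replicate 2 was closest to them. The rise passed in the adapted/B6129SF1 group (log2 fold change 1.02, standard error 0.20, adjusted p = 0.0201 from limma) and in the combined comparison (0.76, adjusted p = 0.025). In the adapted/C57BL/6 group the log2 difference was 0.51 (adjusted p = 0.163 from limma). The combined call was lost without original/B6129SF1 replicate 1, 2 or 3 (adjusted p = 0.0861, 0.0664 and 0.0828) or adapted/C57BL/6 replicate 3 (0.0593), and the adapted/B6129SF1 call without original/B6129SF1 replicate 1 or 3 (0.0656 and 0.0704) or adapted/B6129SF1 replicate 3 (0.0521). The related gene Pfkfb3 was at 6.34 to 12.4 FPKM with overlapping groups, and its combined log2 difference was 0.13 (95% interval -0.38 to 0.63).

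The other 7 genes of upper glycolysis did not pass. Gpi1, which isomerizes glucose phosphate to fructose phosphate, was 158 ± 14.2 FPKM in the original/B6129SF1 group, 188 ± 17.4 in the adapted/B6129SF1 group and 206 ± 32.3 in the adapted/C57BL/6 group (SD, n = 3 each; combined log2 difference 0.31, adjusted p = 0.115 from limma). Tpi1, which interconverts the triose phosphates, was at 285 to 430 FPKM with overlapping groups (log2 difference 0.17, 95% interval -0.13 to 0.48). The liver-type subunit Pfkl was 29.7 ± 6.93, 24.3 ± 4.5 and 29.8 ± 9.13 FPKM in the 3 groups in the same order (SD, n = 3 each).

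**Figure D2:**
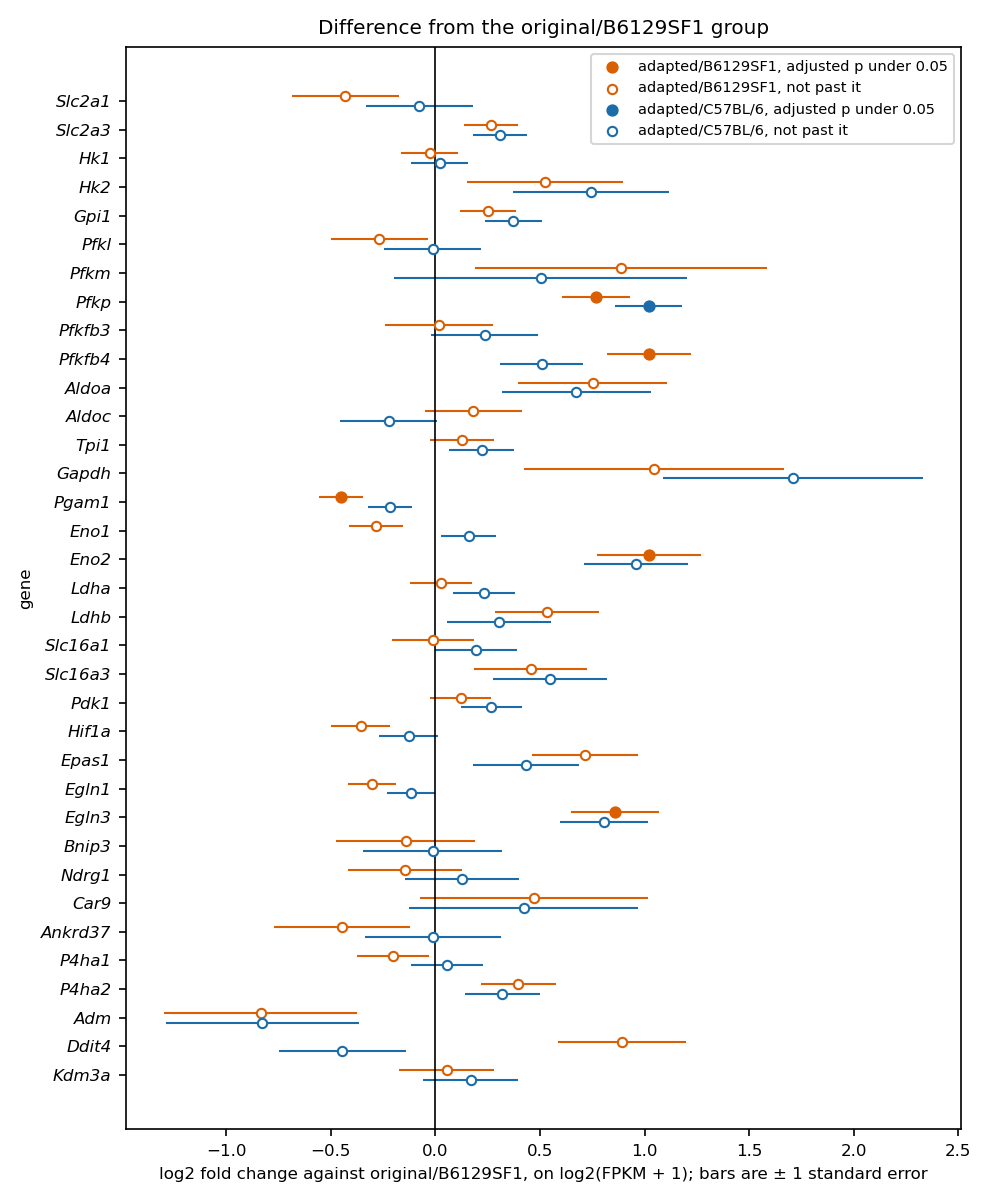
Log2 fold change of each of the 35 genes against the original/B6129SF1 group on the log2(FPKM + 1) scale (horizontal axis; bars are 1 standard error each way), in orange for the adapted/B6129SF1 group and blue for the adapted/C57BL/6 group. Filled points, which have an adjusted p under 0.05 from limma, are Pfkp in both groups and Pfkfb4, Pgam1, Eno2 and Egln3 in the adapted/B6129SF1 group.

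In lower glycolysis, 1 gene rose and 1 fell among the 4 measured in the adapted/B6129SF1 group, where 4.37% of all genes were higher and 3.92% lower. Eno2, the enolase isozyme known from neurons and neuroendocrine cells, was 1.92, 2.62 and 1.77 FPKM in the original/B6129SF1 tumors, 7.71, 4.2 and 4.39 in the adapted/B6129SF1 tumors and 3.55, 6.5 and 5.31 in the adapted/C57BL/6 tumors. The lowest adapted tumor was above the highest original tumor. Its log2 fold change was 1.02 in the adapted/B6129SF1 group (standard error 0.25, limma adjusted p = 0.0415), 0.96 in the adapted/C57BL/6 group (adjusted p = 0.0542, not past the threshold) and 0.99 in both together (adjusted p = 0.0222). The combined call was lost in 5 of its 17 alternatives. It was lost without original/B6129SF1 replicate 1 or 3 or adapted/C57BL/6 replicate 3 (adjusted p = 0.0833, 0.0916 and 0.0547). It was also lost with quantile normalization and with a replicate block (limma adjusted p = 0.0662 and 0.055). The adapted/B6129SF1 call was lost in 11 of its 18 alternatives. It was lost when any tumor of the original/B6129SF1 or adapted/B6129SF1 group was left out and without adapted/C57BL/6 replicate 3 (adjusted p between 0.0561 and 0.125). Quantile normalization, a replicate block and only the groups compared also removed it (limma adjusted p = 0.11, 0.0883 and 0.0656). The adapted/C57BL/6 difference passed in 6 of its alternatives, among them those without adapted/B6129SF1 replicate 1 or adapted/C57BL/6 replicate 1 (0.0291 and 0.0481).

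Pgam1, the phosphoglycerate mutase of most tissues, moved the other way. It was 133, 121 and 142 FPKM in the original/B6129SF1 tumors, 106, 95.8 and 87.3 in the adapted/B6129SF1 tumors and 106, 121 and 114 in the adapted/C57BL/6 tumors. The adapted/B6129SF1 tumors lay clearly below the original ones, while adapted/C57BL/6 replicate 2 at 120.6 FPKM almost reached original/B6129SF1 replicate 2 at 121.3. The log2 fold change was -0.45 in the adapted/B6129SF1 group (standard error 0.11, limma adjusted p = 0.0355), -0.22 in the adapted/C57BL/6 group (adjusted p = 0.249) and -0.33 in both together (adjusted p = 0.048). The combined call is at the edge of the threshold and was lost in 16 of the 18 alternatives, with an adjusted p between 0.0501 and 0.17 in these. Each library except adapted/B6129SF1 replicate 1 was needed for it. The adapted/B6129SF1 call was lost without original/B6129SF1 replicate 1 or 3, adapted/B6129SF1 replicate 2 or 3, or adapted/C57BL/6 replicate 1 or 3 (adjusted p between 0.0512 and 0.118). Quantile normalization, a replicate block, a muscle covariate and only the groups compared also removed it (limma adjusted p = 0.0611, 0.0876, 0.0955 and 0.0828).

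Eno1, the ubiquitous enolase, was 554 ± 55.1 FPKM in the original/B6129SF1 group, 454 ± 39.9 in the adapted/B6129SF1 group and 619 ± 71.8 in the adapted/C57BL/6 group (SD, n = 3 each), without passing in any comparison. Gapdh is listed at only 7.45 to 57.6 FPKM, far below the neighbouring enzyme gene Tpi1. The gene has many near-identical processed copies between which reads can be split, and whether this affected its level was not tested. Its level and its differences (combined log2 difference 1.38, adjusted p = 0.129 from limma, and 0.043 without adapted/C57BL/6 replicate 2) are uncertain.

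The 5 measured genes of lactate and pyruvate fate did not pass in any comparison. Ldha, which makes lactate from pyruvate, was 539 ± 72.5 FPKM in the original/B6129SF1 group, 549 ± 78.6 in the adapted/B6129SF1 group and 631 ± 59.8 in the adapted/C57BL/6 group (SD, n = 3 each). The 95% interval of its combined log2 difference ran from -0.16 to 0.42. Slc16a3, the carrier gene for lactate export, was 29.8 ± 9.41, 41.5 ± 13.3 and 43 ± 6.77 FPKM in the same order, with a log2 difference of 0.50 (95% interval -0.03 to 1.03, adjusted p = 0.193 from limma). The other lactate carrier gene Slc16a1 (log2 difference 0.09), the heart-type subunit Ldhb (0.42) and the kinase Pdk1 (0.19), which holds pyruvate back from the mitochondria, also had combined adjusted p-values above 0.2 from limma. All 5 combined differences were above 0.

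**Figure D3:**
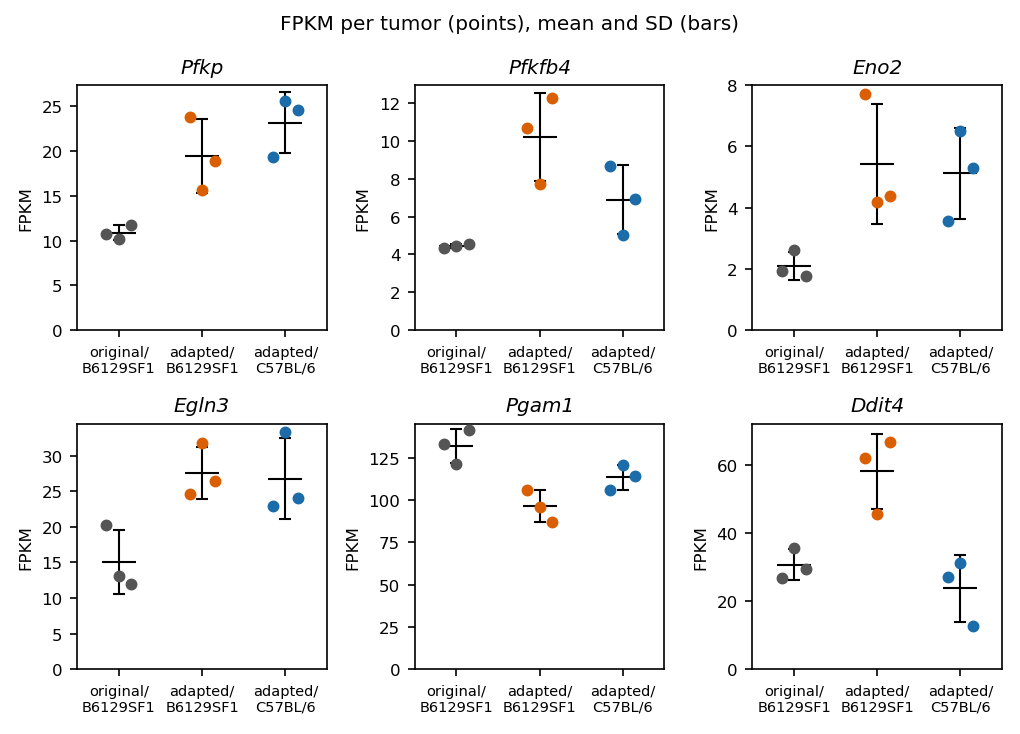
FPKM of 6 genes in each tumor (points), with the mean and SD of each group of 3 tumors (bars); each vertical axis starts at 0. For Pfkp, Pfkfb4, Eno2 and Egln3 the original/B6129SF1 tumors lie below all adapted tumors, for Pgam1 they lie above, and for Ddit4 the adapted/B6129SF1 tumors lie above both other groups.

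Of the HIF subunits and oxygen sensors, 1 of 4 genes rose in the adapted/B6129SF1 group, again against 4.37% of all genes. There 4 of the 4 had an unadjusted p under 0.05 from limma, against 26.5% of all genes, with 2 of them higher and the others lower. In the adapted/C57BL/6 comparison only 1 of the 4 had such a p, and in the combined comparison 2 of the 4. Egln3 encodes the prolyl hydroxylase PHD3, which marks HIF alpha subunits for degradation and is itself induced by HIF. It was 20.2, 13.1 and 11.9 FPKM in the original/B6129SF1 tumors, 24.7, 31.8 and 26.4 in the adapted/B6129SF1 tumors and 22.9, 33.4 and 24.1 in the adapted/C57BL/6 tumors. All adapted tumors were above the highest original tumor, replicate 1. The log2 fold change was 0.86 in the adapted/B6129SF1 group (standard error 0.21, limma adjusted p = 0.0425), 0.81 in the adapted/C57BL/6 group (adjusted p = 0.0562, not past the threshold) and 0.83 in both together (adjusted p = 0.023). The combined call was lost without original/B6129SF1 replicate 2 or 3 (adjusted p = 0.0745 and 0.096), and the adapted/C57BL/6 difference passed without original/B6129SF1 replicate 1 (0.027). The adapted/B6129SF1 call was lost with 7 of the 9 tumors when each was omitted in turn, namely original/B6129SF1 replicate 2 or 3, any adapted/B6129SF1 tumor, or adapted/C57BL/6 replicate 1 or 3 (adjusted p between 0.0555 and 0.13). It was also lost with no filter on low values, a replicate block or only the groups compared (limma adjusted p = 0.0701, 0.0774 and 0.071).

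The HIF alpha subunits differed in sign without passing. Hif1a, the subunit present in nearly all cells, was 53.7, 41 and 58.2 FPKM in the original/B6129SF1 tumors, 36.6, 36.9 and 44.4 in the adapted/B6129SF1 tumors and 45.5, 43.4 and 49.5 in the adapted/C57BL/6 tumors (combined log2 difference -0.24, adjusted p = 0.223 from limma). Without original/B6129SF1 replicate 2 its adapted/B6129SF1 difference passed, at -0.50 (adjusted p = 0.0476). Epas1, the gene of HIF-2 alpha, which is prominent in endothelium and macrophages, was less abundant, at 5.4, 4.57 and 4.55 FPKM in the original/B6129SF1 tumors, 6.98, 7.81 and 11.4 in the adapted/B6129SF1 tumors and 10.6, 4.95 and 6.03 in the adapted/C57BL/6 tumors (combined log2 difference 0.57, adjusted p = 0.123 from limma). Its levels were highest in the muscle-rich tumors adapted/B6129SF1 replicate 3 and adapted/C57BL/6 replicate 1. The summed levels of 8 endothelial markers in these were 130 and 124 FPKM, the highest and next highest of all tumors (82 to 130 FPKM). Their summed macrophage markers, at 2310 and 2481 FPKM, were likewise the top values (1074 to 2481 FPKM over all tumors). The part of these cell types in the Epas1 level was not tested. Egln1, the main prolyl hydroxylase in normal oxygen, was 25.4 ± 1.4, 20.5 ± 1.62 and 23.5 ± 3.33 FPKM in the 3 groups (SD, n = 3 each; combined log2 difference -0.21, 95% interval -0.43 to 0.02). HIF protein, whose stability oxygen controls, was not measured by this assay.

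None of the 9 other genes induced by low oxygen passed in any comparison, and 1 of them, Ddit4, had an unadjusted p under 0.05 in the adapted/B6129SF1 comparison, against 26.5% of all genes. Their median log2 difference for both adapted groups together was -0.01. In that combined comparison 1 of the 9 genes, P4ha2, had an unadjusted p under 0.05. Its log2 difference lay between 0.28 and 0.46 over the 18 alternatives (limma adjusted p between 0.0501 and 0.369). Car9, the carbonic anhydrase gene used as a marker of hypoxic tumor areas, was 2.15, 10.6 and 2.93 FPKM in the original/B6129SF1 tumors, 6.41, 7.22 and 5.26 in the adapted/B6129SF1 tumors and 4, 13.7 and 3.69 in the adapted/C57BL/6 tumors. The SD within groups, taken over all tumors, was 0.8 on the log2 scale, larger than the combined log2 difference of 0.45 (95% interval -0.63 to 1.52). The adapted/B6129SF1 tumors lay closer together than those of the other groups. The vasodilator peptide gene Adm was 9.11 ± 3.36 FPKM in the original/B6129SF1 group, 4.61 ± 1.48 in the adapted/B6129SF1 group and 5.53 ± 4.8 in the adapted/C57BL/6 group (SD, n = 3 each), a combined log2 difference of -0.83 (adjusted p = 0.204 from limma). Without adapted/C57BL/6 replicate 2, where Adm was highest in its group, the difference passed at -1.11 (adjusted p = 0.033). The mitophagy gene Bnip3 (log2 difference -0.08), the stress gene Ndrg1 (-0.01), the collagen prolyl hydroxylase gene P4ha1 (-0.07) and the histone demethylase gene Kdm3a (0.11) had combined differences near 0.

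Most of these genes varied from tumor to tumor within groups, whereas Ddit4 separated the adapted/B6129SF1 group from both others. Adapted/C57BL/6 replicate 2 had the highest level of its group for 9 of the 9 genes, against 35.8% of all genes tested. It had the highest of all tumors for 6 of the 9 (66.7%), against 8.76% of all genes tested. Their median deviation from the gene's mean over the tumors was 0.66 on the log2 scale in that tumor, and between -0.31 and 0.20 in the others. Bnip3 was 105 FPKM there, against 57.6 and 51.4 in the other adapted/C57BL/6 tumors, and Ndrg1 was 108 against 48.7 and 71.7. Adapted/C57BL/6 replicate 2 also had the lowest summed leukocyte markers of its group (652 FPKM, against 1147 and 1239) and the lowest summed macrophage markers of any tumor (1074 FPKM, against 1231 to 2481 in the others), and the part of this in the result was not tested. It was the highest of its group for 13 of the 22 genes of the glycolytic pathway as well (59.1%).

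After the group means were removed, the median Pearson correlation between pairs of the 9 genes over the 9 tumors was 0.66 (36 pairs, 26 of them above 0.5; median Spearman correlation 0.62). For the 231 pairs of glycolytic genes it was 0.10. Without adapted/C57BL/6 replicate 2 the former fell to 0.35 with 13 pairs above 0.5, so much of the shared variation came from that tumor. The points of each correlation share tumors, composition and scaling, and they are a description.

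**Figure D4:**
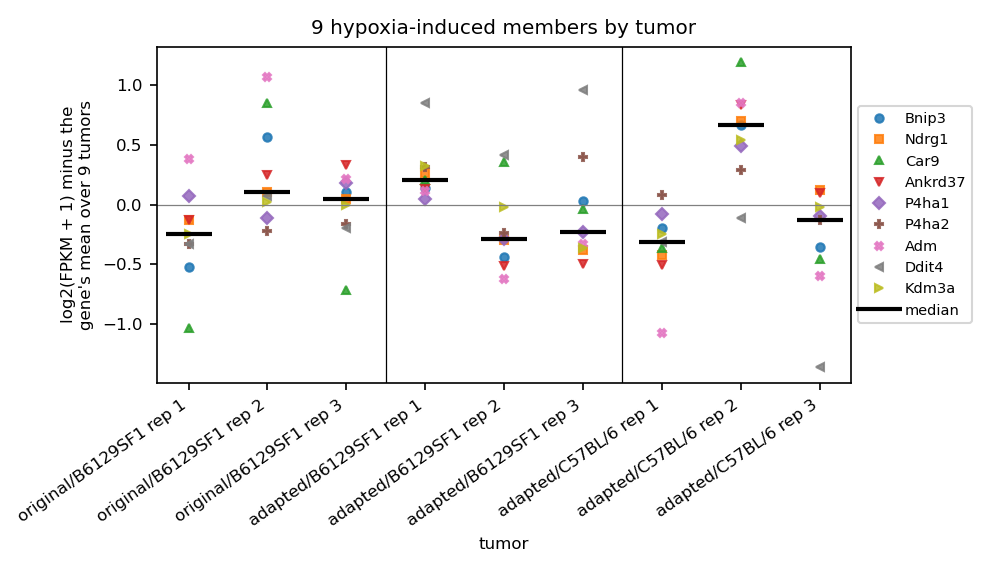
Level of the 9 genes induced by low oxygen in each tumor, as log2(FPKM + 1) minus the gene's mean over the 9 tumors (colored points), with their median in each tumor (black bars). The median is 0.66 in adapted/C57BL/6 replicate 2 and between -0.31 and 0.20 in the other tumors.

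Between the hosts, the adapted/C57BL/6 and adapted/B6129SF1 tumors carried the same adapted cells, and the largest difference was in Ddit4, whose product restrains the growth kinase mTORC1 under stress and low oxygen. Ddit4 was 26.8, 35.7 and 29.5 FPKM in the original/B6129SF1 tumors, 62, 45.7 and 66.8 in the adapted/B6129SF1 tumors and 27.2, 31.3 and 12.6 in the adapted/C57BL/6 tumors. The adapted/B6129SF1 tumors stood above both other groups without overlap. The log2 difference of the adapted/C57BL/6 from the adapted/B6129SF1 group was -1.34 (standard error 0.30, unadjusted p = 0.00184, adjusted p = 0.486 from limma), and that of the adapted/B6129SF1 from the original/B6129SF1 group was 0.89 (adjusted p = 0.106). The latter passed without adapted/C57BL/6 replicate 3 (adjusted p = 0.0303) and when the third group was left out of the model (0.0447). Eno1 had a log2 difference of 0.44, higher in the adapted/C57BL/6 than in the adapted/B6129SF1 tumors without overlap (adjusted p = 0.602 from limma), and Pfkfb4 had a difference of -0.51 (adjusted p = 0.777). In all, 4 of the 35 genes did not overlap between these groups (11.4%), against 11.7% of all genes, and they were Ddit4, Eno1, Slc16a1 and Aldoc.

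Some glycolytic genes moved with skeletal muscle RNA. Pfkm, the muscle-type phosphofructokinase subunit, was 81.8 FPKM in adapted/B6129SF1 replicate 3 and 48.8 in adapted/C57BL/6 replicate 1, against 11.2 to 15.5 in the other 7 tumors. Aldoa was 1712 FPKM in adapted/B6129SF1 replicate 3, against 481 to 905 elsewhere. Genes of muscle-type enzymes followed the same tumors. Pgam2, the muscle phosphoglycerate mutase, was 189 and 50.3 FPKM in these against at most 4.18 elsewhere, and Pygm, the muscle glycogen phosphorylase, was 116 and 61.5 against at most 5.51. The muscle enolase gene Eno3 was 341 and 174 against 71.7 to 103, so it was also expressed in the tumors with little muscle RNA. Without these 2 tumors the combined log2 difference of Pfkm was -0.02 (adjusted p = 0.944 from limma) in place of 0.70 (adjusted p = 0.474), and that of Aldoa was 0.45 (adjusted p = 0.135) in place of 0.71 (adjusted p = 0.164). Of the called genes, Pfkp, Pfkfb4, Eno2 and Egln3 also passed in the combined comparison without them, and Pgam1 did not (log2 difference -0.28, adjusted p = 0.127). In the adapted/B6129SF1 comparison Pfkp, Egln3 and Pgam1 did not pass without them (adjusted p = 0.0553, 0.0928 and 0.115).

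Of 10 ratios of FPKM between related genes within each tumor, 3 did not overlap between original and adapted tumors, and 1 of these was of glycolytic isozymes. The Eno2 to Eno1 ratio was 0.00286 to 0.005 in the original/B6129SF1 tumors and 0.00657 to 0.0154 in the adapted tumors. The Egln3 to Egln1 ratio was 0.85, 0.497 and 0.457 in the original/B6129SF1 tumors and between 1.08 and 1.69 in the adapted tumors. The Epas1 to Hif1a ratio was 0.0781 to 0.111 in the original tumors and 0.114 to 0.257 in the adapted tumors, where adapted/C57BL/6 replicate 2 lay just above the original range. Eno1, Egln1 and Hif1a did not pass by themselves. Eno2 and Egln3 by themselves did not overlap between original and adapted tumors, so their ratios partly repeat that result. No background share was computed for ratios. Pfkp made up 20.5%, 20.3% and 19.3% of the summed phosphofructokinase FPKM in the original/B6129SF1 tumors and 35.2%, 29.6%, 32.1% and 41.1% in the 4 adapted tumors with little muscle RNA. In the muscle-rich adapted/B6129SF1 replicate 3 and adapted/C57BL/6 replicate 1 the share was 15.5% and 20.8%, with Pfkm at 66.9% and 52.4%. The Pfkp share thus overlapped between original and adapted tumors, as did the ratios of Hk2 to Hk1, Aldoc to Aldoa, Ldhb to Ldha, Slc2a3 to Slc2a1, Slc16a3 to Slc16a1, P4ha2 to P4ha1 and Pfkfb4 to Pfkfb3.

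Beyond the 35 genes, 35 other genes of glucose metabolism were tested of 50 listed, and 2 rose and 2 fell in the adapted/B6129SF1 group (11.4%, against 8.28% of all genes), 1 rose and 2 fell in the adapted/C57BL/6 group (8.57%, against 6.75%), and 0 passed between the hosts by limma, where 0.0292% of all genes did. An unadjusted p under 0.05 between the hosts was found for 5 of the 35 (14.3%), against 6.27% of all genes. Bpgm, which makes 2,3-bisphosphoglycerate on a side branch of glycolysis, was 22, 33.4 and 28.6 FPKM in the original/B6129SF1 tumors, 9.28, 12.5 and 12.1 in the adapted/B6129SF1 tumors and 13.2, 11.5 and 10.4 in the adapted/C57BL/6 tumors. All adapted tumors were below the lowest original tumor. On the log2 scale it fell by 1.23 and 1.18 in the adapted/B6129SF1 and adapted/C57BL/6 groups (adjusted p = 0.00707 and 0.00643 from limma), and these calls held in every alternative tried. Gpd2, the mitochondrial glycerol phosphate dehydrogenase that passes cytosolic reducing power to the respiratory chain, was 25 ± 2.68 FPKM in the original/B6129SF1 group, 14.1 ± 1.23 in the adapted/B6129SF1 group and 16.1 ± 0.166 in the adapted/C57BL/6 group (SD, n = 3 each), and its log2 fold change was -0.78 in the adapted/B6129SF1 group and -0.60 in the adapted/C57BL/6 group (limma adjusted p = 0.00592 and 0.0129). The adapted/C57BL/6 call of Gpd2 was lost without original/B6129SF1 replicate 1 or 3 or adapted/C57BL/6 replicate 3 (adjusted p = 0.0516, 0.0587 and 0.0633).

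Among the genes that rose, Pdk4, a kinase that shuts pyruvate out of the mitochondria, was 13.7, 24.6 and 9.08 FPKM in the original/B6129SF1 tumors, 102, 57.9 and 59.4 in the adapted/B6129SF1 tumors and 97.6, 68.7 and 20.8 in the adapted/C57BL/6 tumors. It rose in the adapted/B6129SF1 group (adjusted p = 0.0449 from limma) and in the combined comparison (log2 fold change 1.98, standard error 0.48, adjusted p = 0.0318). In the adapted/C57BL/6 group, where replicate 3 lay within the original range, the log2 difference was 1.77 (adjusted p = 0.0922 from limma, and 0.031 without that tumor). The adapted/B6129SF1 call was lost without original/B6129SF1 replicate 1 or 3, any adapted/B6129SF1 tumor, or adapted/C57BL/6 replicate 2 (adjusted p between 0.0593 and 0.137). The combined call was lost in 8 of its 18 alternatives (adjusted p between 0.0514 and 0.122). Both calls were lost with a covariate for muscle RNA (0.0932 in the adapted/B6129SF1 group and 0.0596 combined) and with both muscle-rich tumors left out (0.0625 and 0.0548). Pck2, the mitochondrial phosphoenolpyruvate carboxykinase, was 7.71 ± 0.637 FPKM in the original/B6129SF1 group, 9.07 ± 1.38 in the adapted/B6129SF1 group and 15 ± 3.05 in the adapted/C57BL/6 group (SD, n = 3 each). It rose in the adapted/C57BL/6 group by 0.86 (log2 scale; adjusted p = 0.016 from limma), a call lost without original/B6129SF1 replicate 1 or adapted/C57BL/6 replicate 3 (0.0512 and 0.0554). The pentose phosphate gene Rpia rose by 0.40 in the adapted/B6129SF1 group (adjusted p = 0.0355 from limma), and this call was lost in 12 of its 19 alternatives, among them those that left out a tumor other than adapted/B6129SF1 replicate 1 (adjusted p between 0.0508 and 0.102).

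Of 46 other genes of the HIF pathway and its targets tested of 49 listed, 0 rose and 2 fell in the adapted/B6129SF1 group (4.35%, against 8.28% of all genes), 1 rose and 4 fell in the adapted/C57BL/6 group (10.9%, against 6.75%), and 0 passed between the hosts by limma, where 0.0292% of all genes did. An unadjusted p under 0.05 between the hosts was found for 6 of the 46 (13%), against 6.27% of all genes. Stc2, a secreted stanniocalcin induced by stress and hypoxia, was 14.7, 7.33 and 17.3 FPKM in the original/B6129SF1 tumors, 1.86, 2.83 and 1.47 in the adapted/B6129SF1 tumors and 4.21, 3.54 and 5.86 in the adapted/C57BL/6 tumors. On the log2 scale it fell by 2.15 in the adapted/B6129SF1 group (adjusted p = 0.00737 from limma) and by 1.29 in the adapted/C57BL/6 group (adjusted p = 0.0417), and the latter call was lost without original/B6129SF1 replicate 1 or 3, adapted/B6129SF1 replicate 1 or any adapted/C57BL/6 tumor (adjusted p between 0.0501 and 0.124). Arnt2, a partner subunit of HIF alpha known mainly from the nervous system, was 2.52 ± 0.184 FPKM in the original/B6129SF1 group, 0.923 ± 0.287 in the adapted/B6129SF1 group and 0.937 ± 0.239 in the adapted/C57BL/6 group (SD, n = 3 each). It fell by 0.88 and 0.87 (log2 scale; adjusted p = 0.0182 and 0.0195 from limma). Both calls were lost without original/B6129SF1 replicate 1 (0.0582 and 0.0618) or replicate 3 (0.0733 and 0.0795), and the adapted/C57BL/6 call also without adapted/C57BL/6 replicate 1 or 3 (0.0674 and 0.0927). The ubiquitous partner Arnt was 26.8 to 36.8 FPKM over all tumors and did not pass.

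In the adapted/C57BL/6 group the circadian repressor gene Bhlhe41 rose by 0.95 (adjusted p = 0.0427 from limma), and the collagen lysyl hydroxylase gene Plod2 and the hydroxylase gene Jmjd6 fell by 0.58 and 0.44 (adjusted p = 0.0471 and 0.0327). The Bhlhe41 call was lost when any original/B6129SF1 tumor was left out, and without adapted/B6129SF1 replicate 1, or adapted/C57BL/6 replicate 2 or 3 (adjusted p between 0.0511 and 0.146). That of Plod2 was lost without original/B6129SF1 replicate 1 or 3, adapted/B6129SF1 replicate 2, or adapted/C57BL/6 replicate 1 or 3 (0.066 to 0.167), and that of Jmjd6 when any original/B6129SF1 tumor or adapted/C57BL/6 replicate 1 or 3 was left out (0.0537 to 0.122). With both muscle-rich tumors left out, the adapted/B6129SF1 calls of Arnt2 and Rpia (adjusted p = 0.0561 and 0.127) and the adapted/C57BL/6 calls of Stc2, Plod2 and Jmjd6 (0.0919, 0.122 and 0.111) were lost as well. The muscle covariate removed the adapted/C57BL/6 calls of Bhlhe41, Stc2, Plod2 and Jmjd6 (0.0574, 0.0567, 0.0651 and 0.0508). It also removed the adapted/B6129SF1 call of Rpia (0.085). A replicate block likewise removed the adapted/C57BL/6 calls of Bhlhe41, Stc2, Plod2 and Jmjd6 (limma adjusted p = 0.0717, 0.0792, 0.104 and 0.0809). Vegfa, the angiogenic growth factor and a classic HIF target, was 34.9, 42.2 and 48.6 FPKM in the original/B6129SF1 tumors, 52.3, 29.6 and 23.8 in the adapted/B6129SF1 tumors and 36.9, 50.6 and 44.7 in the adapted/C57BL/6 tumors. Its groups overlapped, and its combined log2 difference was -0.12 (95% interval -0.64 to 0.40).

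**Figure D5:**
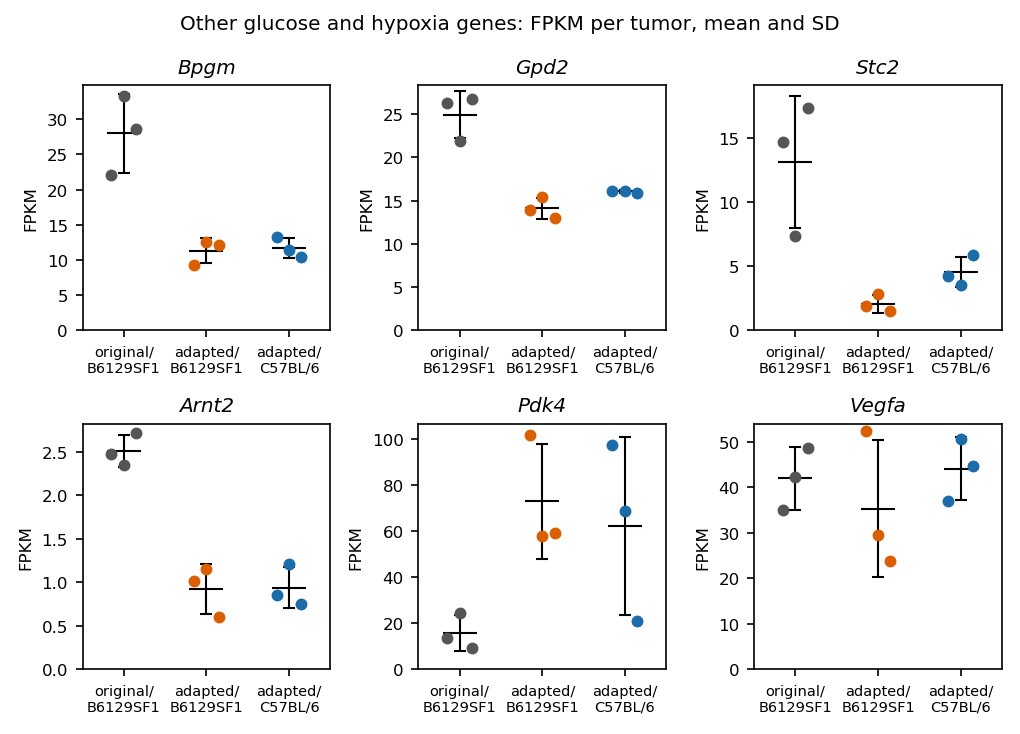
FPKM of 6 other genes of glucose metabolism and the HIF pathway in each tumor (points), with the mean and SD of each group of 3 tumors (bars); each vertical axis starts at 0. Bpgm, Gpd2, Stc2 and Arnt2 are lower in all 6 adapted tumors than in the 3 original/B6129SF1 tumors, Pdk4 is higher in 5 of them, and Vegfa overlaps.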

How the data were processed

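RNA was isolated from 9 whole tumors, 3 per group, and grouped by the labels. According to the methods, the authors sequenced paired-end reads, checked them with FastQC, aligned them to mm10 with HISAT2 and normalized them with Cuffnorm. The deposited values are FPKM. The gene annotation and the Cuffnorm scaling are not given in the sources used here. FPKM are not counts, so no count test was used, and Cuffdiff was not rerun.

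Values were taken as log2(FPKM + 1), a scale that understates the change of weakly expressed genes. Of the 17369 genes in the table, 10263 reached 1 FPKM in 3 or more tumors. A single model of the 9 tumors was fitted to them by limma (version 3.58.1, R 4.3.3), using lmFit and eBayes with a mean-variance trend. P-values were two-sided, with Benjamini-Hochberg adjustment across the 10263 genes. The threshold was an adjusted p under 0.05, and fold changes carry 95% intervals. The combined comparison set the mean of both adapted groups against the original group. Groups are named by their cells and the host strain. Ratios and correlations are descriptions. The fit was also run on simulated tumors in which each gene varied independently. Variation shared by many genes of a tumor, such as that of muscle RNA, was therefore not covered.

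The gene set and the lists of other genes were chosen with earlier results of these data known. Values in every tumor are given for genes of the set past the threshold and for those that did not overlap between original and adapted tumors. Some of the most abundant and most variable genes, and some other genes that passed, are given as ranges, as mean and SD or by fold change only. Other genes were named from 2 lists if they passed, with Vegfa, Eno3, Pgam2 and Pygm. Values for further genes (Hk2, Hif1a, Epas1, Ddit4) were added after they were seen. The labels call the tumors biological replicates. At most 0.0487% of genes had equal values in any pair of tumors. Alternatives were another pseudocount, 2 other filters on low values, 2 other scalings, a replicate block, eBayes without a trend, a muscle covariate, both muscle-rich tumors left out, only the groups compared, and each tumor left out in turn. No sequences or coordinates are given, because no mouse reference was used here.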

Additional observations from a re-analysis of the deposited data

How the results depend on the processing

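With 3 tumors per group, few calls are stable, and absolute depth is unknown. Over the genes of the set in all 4 comparisons and every alternative, 2388 values kept their direction and side of the threshold, 72 lost and 17 gained a call, and 136 changed sign, 0 of them with a call. Among the last was the combined Pfkm difference, which was -0.0182 without both muscle-rich tumors. The gained calls were of Eno2, Egln3, Ddit4, Gapdh, Ldhb, Hif1a, Adm and Aldoa, the last in the adapted/C57BL/6 group with only the groups compared (adjusted p = 0.0497). The causes were not tested.

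In the adapted/B6129SF1 comparison the 5 genes of the set past the threshold became 3 with no filter on low values and with quantile normalization, 2 with both muscle-rich tumors left out and with only the groups compared, and 0 to 5 with a tumor left out. The 2 differentially expressed genes became 0 with quantile normalization, 1 with no filter, a mean of at least 5 FPKM, the muscle covariate, both muscle-rich tumors left out or only the groups compared, and 0 to 2 with a tumor left out. All genes past the threshold fell from 850 to 558 with the muscle covariate, 472 without the muscle-rich tumors, 449 with only the groups compared, and 225 to 808 with a tumor left out.

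In the adapted/C57BL/6 comparison the 1 gene past the threshold became 2 with a pseudocount of 0.1 or both muscle-rich tumors left out, 3 with the muscle covariate or only the groups compared, and 0 to 2 with a tumor left out. The 1 differentially expressed gene became 2 with that pseudocount, the muscle covariate or both tumors left out, and 0 to 2 with a tumor left out. All genes past the threshold fell from 693 to 448 with a mean of at least 5 FPKM, and ranged from 199 to 798 with a tumor left out. Between the hosts, 0 genes of the set passed under every alternative, and the 3 of all genes became 1 with no filter, 0 with a mean of at least 5 FPKM or only the groups compared, and 0 to 6 with a tumor left out.

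In the combined comparison the 5 genes past the threshold became 3 with a mean of at least 5 FPKM or quantile normalization, and 1 to 6 with a tumor left out. The 0 differentially expressed genes became 1 with a pseudocount of 0.1, median-of-ratios scaling, the muscle covariate or both muscle-rich tumors left out, and 0 to 2 with a tumor left out. All genes past the threshold ranged from 463 to 1163 with a tumor left out, from 1221. The median correlation between the genes induced by low oxygen ranged from 0.348 to 0.769 with a tumor left out, an alternative chosen after seeing the data.

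Same-numbered tumors are different animals. The correlations of their deviations from the group means ran from -0.39 to 0.61. So few correlations cannot show whether same-numbered tumors shared a batch, so the block is given only as an alternative. With a replicate block, the genes of the set past the threshold numbered 2 (1 of them differentially expressed) in the adapted/B6129SF1, 1 in the adapted/C57BL/6 and 4 in the combined comparison. All genes past the threshold with the block numbered 444, 388 and 793 in these and 0 between the hosts. Ldhb passed only with the block (limma adjusted p = 0.0377 in the adapted/B6129SF1 and 0.0322 in the combined comparison).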
